A study of Homo sapiens with 2 samples.

Results

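Poly(A) tails and read numbers are described here for transcripts of nuclear genes that encode parts of the mitochondrial respiratory chain and ATP synthase, in human HCT116 cells whose cytoplasmic poly(A)-binding proteins were replaced by a transgene. Of 9 genes listed for the group (ATP5B, ATP5A1, USMG5, UQCRH, COX4I1, COX6C, COX7C, COX6A1 and NDUFA4), 8 had a poly(A) site inside their gene window in both libraries, with 1 site each, out of 9004 sites in the series and 8890 sites present in both libraries. No site lay in the COX6A1 window, and this gene is not analysed here. The windows give positions that follow hg19. The deposited tables pair no site with a gene name, so each name rests on its window. The genes were listed by function, with earlier results of these data known.

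All groups were HCT116 cells, a human colon cancer line, in polyclonal lines with mAID degron tags on the endogenous PABPC1 and PABPC4 and a Sleeping Beauty transposon construct, integrated in several copies, that carries the transgene. The transgene was PABP1212, a PABPC1 with RRM1 and RRM2 duplicated, in one library and PABPC1 in the other. Cells received 1 μg/mL doxycycline, which induces the transgene, and 0.5 mM of the auxin IAA (indole-3-acetic acid), which removes the tagged proteins, for 13 days, and were sorted into 4 gates of 25% of cells by transgene level. These are called here the lowest, second-lowest, second-highest and highest level. The fifth subsample of each library had no treatment and no sort, and is called uninduced. Its cells carried the same tags and transgene construct. Nanopore direct RNA sequencing gave 1 tail length per read, with 32 to 1024 reads per site and subsample at the 8 sites.

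Each level was sequenced as 1 subsample per library, so there are no replicates. The transgene cannot be told apart from the library, nor a level from its adapter set, and uninduced cells differ from sorted cells in drugs, sort and adapters together. Depth was 139869 to 630986 reads per PABP1212 subsample and 65862 to 193416 per PABPC1 subsample. The uninduced subsamples of the libraries, neither of which had a replaced protein, differed in median tail by −29.5 to 4.5 nt over the 8 genes (PABP1212 minus PABPC1). The median of the absolute difference was 11.75 nt, and over all 914 sites with at least 10 reads in each of the 10 subsamples it was 9.5 nt. The −29.5 nt belonged to NDUFA4, which had 32 reads in the PABPC1 uninduced subsample.

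The respiratory chain passes electrons from nutrients to oxygen and pumps protons across the inner mitochondrial membrane, and ATP synthase uses the returning protons to make ATP. Most of their subunits are encoded in the nucleus, and their mRNAs are polyadenylated in the nucleus and translated in the cytoplasm, where PABPC proteins coat the tails. In ATP synthase, ATP5B (now ATP5F1B) and ATP5A1 (now ATP5F1A) encode the beta and alpha subunits of the catalytic head, and USMG5 (now ATP5MD, also called DAPIT) encodes a small membrane subunit. UQCRH encodes the hinge subunit of complex III, which hands electrons to cytochrome c. COX4I1, COX6C and COX7C encode subunits of complex IV (cytochrome c oxidase), and so does NDUFA4, which was long assigned to complex I.

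The tails begin where the transcript is cleaved, and the letters just before that point are shown for 6 of the 8 genes because they carry the hexamer that directs cleavage and polyadenylation. They are the last 30 nt of annotated transcripts (GENCODE v29, GRCh38), 5′ to 3′, with the hexamer AATAAA in capitals.
ATP5B (chr12:56638179-56638208, minus strand): ttaaggtttccAATAAAatgtacacccctc
ATP5A1 (chr18:46084144-46084173, minus strand): tgaaaAATAAAggttccataatgcatagtt
USMG5 (chr10:103389050-103389079, minus strand): atttgtacAATAAAttatgaacctggaaaa
UQCRH (chr1:46316747-46316776, plus strand): catctaAATAAAagttctatgatctgcaaa
COX4I1 (chr16:85806973-85807002, plus strand): actgctAATAAAtgaccagtttacctgaaa
COX7C (chr5:86620933-86620962, plus strand): tttatatAATAAAagggaaatacaaatcga
The hexamer starts 19 to 25 nt from the transcript end in these 6. The annotated end of NDUFA4 holds it too, 20 nt from the end, and is not shown because the deposited site of this gene lies far from the edge of its window. The end of COX6C was not analysed here. On the transcript strand, AATAAA occurs in the last 30 nt of 40.8% of 57050 protein-coding transcripts of the same annotation, and the variant ATTAAA in 11.7%. The transcripts are short, with 364 nt for USMG5, 604 nt for UQCRH, 666 nt for COX7C and 708 nt for COX4I1, while ATP5B and ATP5A1 have 1839 nt and 1945 nt. On hg19, the deposited sites of these genes are at 57031962 on chromosome 12 for ATP5B, 43664115 on chromosome 18 for ATP5A1, 105148762 on chromosome 10 for USMG5, 46782448 on chromosome 1 for UQCRH, 85840608 on chromosome 16 for COX4I1 and 85916583 on chromosome 5 for COX7C. The annotated ends and the deposited sites are on different builds, and whether each pair is the same cleavage site was not tested.

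The deposited site of NDUFA4 is at 10973088 on chromosome 7 and that of COX6C at 100890377 on chromosome 8, both on the minus strand. The NDUFA4 site lay 1588 nt inside the downstream edge of its window, against 252 to 377 nt for the other 7 genes.

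Tails of these transcripts were longest at the lowest level of the transgene and shorter at higher levels. Over the 8 genes, the median of the gene's median tail with PABP1212 was 95 nt in uninduced cells, 116.5 nt at the lowest level, 93 nt at the second-lowest, 75 nt at the second-highest and 75.5 nt at the highest. With PABPC1 it was 101.25 nt in uninduced cells, and 119, 104, 96.5 and 100.25 nt over the levels in rising order. The same medians over all 914 sites were 94.5, 120.5, 97, 80 and 82 nt with PABP1212, and 96, 116.5, 103, 99 and 99.5 nt with PABPC1. At the highest PABP1212 level all 8 genes lay below the median of all sites, and at the lowest PABPC1 level 7 of 8 lay above it. The distances ran from −16 (UQCRH) to −1.5 nt (NDUFA4) at the highest PABP1212 level. At the lowest PABPC1 level they ran from −0.5 (UQCRH) to 18.5 nt (USMG5 and COX6C). There the 95% order-statistic interval over reads of every gene held the 116.5 nt of all sites. At the highest PABP1212 level only USMG5, UQCRH, COX4I1 and COX7C had an interval wholly below 82 nt.

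**Figure D1:**
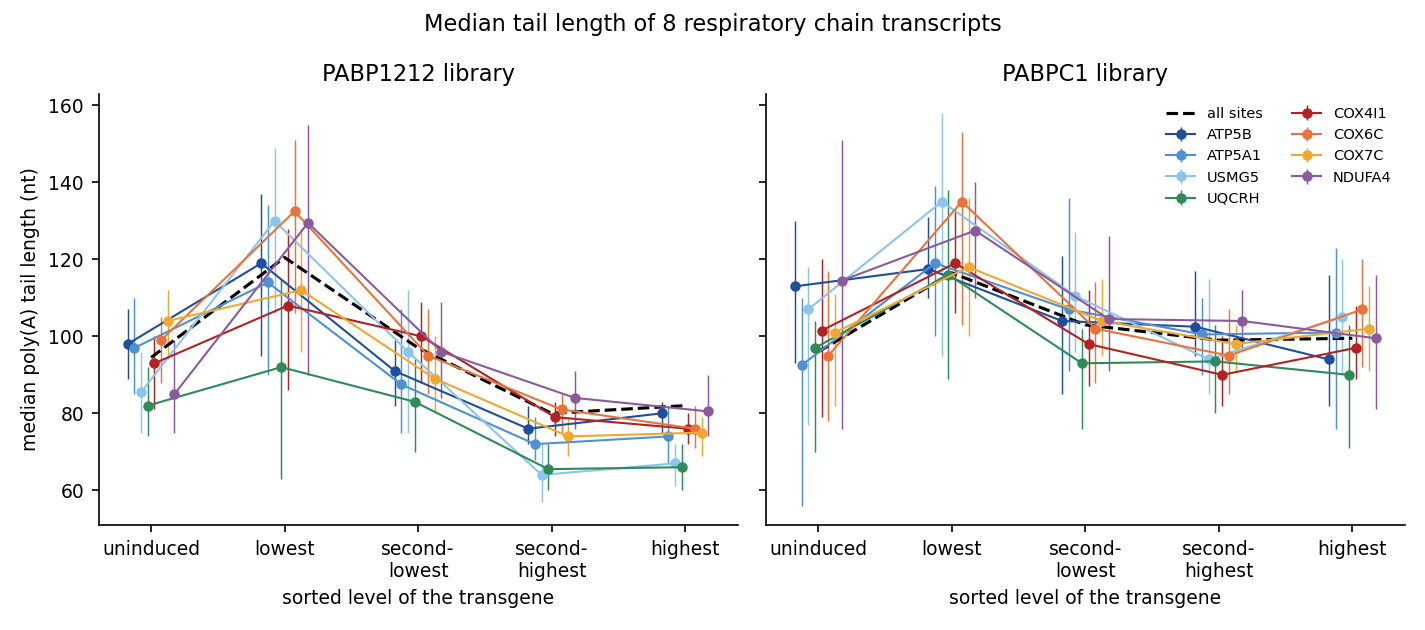
Median poly(A) tail length in nt (vertical axis) of the 8 transcripts by level (horizontal axis), with the PABP1212 library on the left and the PABPC1 library on the right. Bars are 95% order-statistic intervals over reads, and the dashed line is the median of the medians over 914 sites. In both panels the lowest level holds the longest tails, and only in the left panel do the upper levels lie below the uninduced subsample for all 8 genes.

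In the catalytic head of ATP synthase, ATP5B had the most reads per site of the group, a mean of 363 per subsample, and ATP5A1 had 196.7, less than 5 of the 8 genes. Intervals in the sentences on genes are 95% order-statistic intervals of the median over reads and cover counting error only. With PABP1212 the median tail of ATP5B was 98 nt (89 to 107) in uninduced cells, and over the levels in rising order 119 (95 to 137), 91 (82 to 99), 76 (72 to 82) and 80 nt (75 to 83). With PABPC1 it was 113 nt (93 to 130) in uninduced cells, then 117.5 (110 to 131), 104 (85 to 121), 102.5 (95 to 117) and 94 nt (82 to 116). With PABP1212 the upper levels of ATP5B lay below the uninduced interval, and with PABPC1 the intervals of all 5 subsamples overlapped. ATP5A1 with PABP1212 had medians of 97, 114, 87.5, 72 and 74 nt from uninduced cells upward, and with PABPC1 92.5, 119, 107, 100.5 and 101 nt. The ATP5A1 medians of the upper levels lay below uninduced cells with PABP1212 and above them with PABPC1. With PABP1212 the intervals were 68 to 79 and 67 to 82 nt at these levels, apart from 85 to 110 nt in uninduced cells. With PABPC1 they were 90 to 110 and 76 to 123 nt, and overlapped the 56 to 110 nt of uninduced cells, which had 50 reads.

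USMG5, the small membrane subunit of ATP synthase, had the steepest fall over the PABP1212 levels among the 8 genes. Its median tail with PABP1212 was 85.5 nt (75 to 96) in uninduced cells, then 130 (106 to 149), 96 (75 to 112), 64 (57 to 72) and 67 nt (61 to 72) over the rising levels. Its lowest level lay above the intervals of uninduced cells and of the upper levels, whose tails were in turn shorter than in uninduced cells. With PABPC1 the medians were 107 nt in uninduced cells and 135, 110.5, 94 and 105 nt over the rising levels, with 49 reads at the lowest.

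UQCRH, of complex III, had the shortest median tail of the 8 genes in 7 of the 10 subsamples. With PABP1212 its median was 82 nt (74 to 92) in uninduced cells, then 92 (63 to 115), 83 (70 to 94), 65.5 (60 to 72) and 66 nt (60 to 72). With PABPC1 it was 97, 116, 93, 93.5 and 90 nt in the same order. The PABP1212 lowest level, with 58 reads, overlapped every other level in its interval, and the upper levels lay below uninduced cells.

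In complex IV, COX6C had median tails of 99 nt (88 to 105) in uninduced cells, then 132.5 (106 to 151), 95 (85 to 107), 81 (75 to 85) and 76 nt (71 to 82) over the PABP1212 levels. With PABPC1 COX6C had 95, 135, 102, 95 and 107 nt. The lowest level was the highest value in both libraries. COX4I1 had 93, 108, 100, 79 and 76 nt with PABP1212 and 101.5, 119, 98, 90 and 97 nt with PABPC1. COX7C had 104, 112, 89, 74 and 75 nt with PABP1212 and 101, 118, 104, 98 and 102 nt with PABPC1. Both lay 14 to 30 nt below uninduced cells at the upper PABP1212 levels and at most 11.5 nt below them at the upper PABPC1 levels, where COX7C was 1 nt longer at the highest.

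NDUFA4 differed from the other genes in its comparison with uninduced cells. Its medians were 85 (75 to 99), 129.5 (90 to 155), 96 (84 to 109), 84 (76 to 91) and 80.5 nt (74 to 90) with PABP1212, from uninduced cells upward. The upper PABP1212 levels were within 4.5 nt of uninduced cells, inside its interval, whereas the other 7 genes were 14 to 30 nt shorter there. With PABPC1 NDUFA4 had 114.5, 127.5, 104.5, 104 and 99.5 nt. Its uninduced values in the libraries are those that differ most, as given above.

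Set against uninduced cells, the lowest level had longer median tails for 8 of 8 genes in both libraries, by 8 to 44.5 nt with PABP1212 (median 19 nt) and by 4.5 to 40 nt with PABPC1 (median 18.25 nt). Over all 914 sites tails were longer at 91.0% of sites with PABP1212 and at 82.1% with PABPC1, with median changes of 25.75 and 20 nt. At the second-highest and highest PABP1212 levels 8 of 8 genes had shorter tails, with median changes of −19.75 and −18.25 nt, against −15 and −13.25 nt over all sites, of which 86.7% and 83.8% were shorter. At the same PABPC1 levels 6 and 5 of 8 genes were shorter, with median changes of −7 and −3.25 nt, while all sites changed by 1 and 3 nt, with 47.0% and 43.3% of sites shorter. There is 1 subsample per level, so these changes have no test. The change at the lowest PABP1212 level was 24.0 nt when means of reads took the place of medians, and that at the highest was −12.8 nt.

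Between the libraries, the widest difference in the change from uninduced cells was that of COX6C at the highest level, where it was −23 nt with PABP1212 and 12 nt with PABPC1. ATP5A1 changed by −25 nt with PABP1212 and 8 nt with PABPC1 at the second-highest level, and COX7C by −29 nt with PABP1212 and 1 nt with PABPC1 at the highest. NDUFA4 was the only gene whose change was higher with PABP1212 at every level, by 9.5 to 31.5 nt, the 31.5 nt at the lowest level. At the second-lowest level ATP5B, USMG5, COX4I1 and UQCRH were also higher with PABP1212, by 2 to 10.5 nt. At the lowest level ATP5B and USMG5 were, by 16.5 nt each, and at the highest ATP5B was, by 1 nt. The uninduced subsamples already differed by up to 29.5 nt, and the differences at single levels have no test.

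A linear trend over the 4 sorted levels and a difference between sorted and uninduced cells were fitted with limma per library, over all 914 sites, on the mean of log2(nt + 1). A called site has a Benjamini-Hochberg adjusted p under 0.05 over all sites. The trend was negative for 8 of 8 genes with PABP1212 (median −0.12 log2 per level) and for 8 of 8 with PABPC1 (median −0.09), against medians of −0.14 and −0.08 over all sites. With PABP1212 1 of 8 genes was called, USMG5, where 15.2% of all sites were called. With a minimum of 30 reads per subsample, which all 8 genes meet, it was 1 of 8 genes and 43.8% of 249 sites. USMG5 fell by 0.22 log2 per level (SE 0.06, limma adjusted p = 0.0170). The other 7 ranged from −0.15 (COX6C, SE 0.05, limma adjusted p = 0.0597) to −0.07 (UQCRH, SE 0.07, limma adjusted p = 0.414), and 7 of 8 genes had an unadjusted p under 0.05, as had 316 sites. The USMG5 call did not hold when the median of each subsample over sites was subtracted (−0.10, limma adjusted p = 0.178), without the PABP1212 lowest level (0.481) or second-lowest level (0.116), without the PABPC1 highest level (0.0571) or with the libraries fitted apart (0.0507).

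The count of genes with a called PABP1212 tail trend changed when reads with a tail of 0 were left out. Tails of 0 made up 0.635% of the reads of the 8 genes in uninduced PABP1212 cells, 2.82% at the lowest level, 0.430% at the second-lowest, 2.15% at the second-highest and 0.615% at the highest. Over the reads of all sites the shares were 0.604%, 2.00%, 0.754%, 2.25% and 0.917% in the same order. With tails of 0 left out, 8 of 8 genes were called, all falling, where 47.7% of all sites were called. Without the PABP1212 highest level 8 of 8 genes were also called, as were 72.8% of sites, and leaving out the second-highest instead left 7 of 8 and 53.6% of sites. The highest minus the second-highest PABP1212 level was −5 to 4 nt in these genes.

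With PABPC1 0 of 8 genes were called for the tail trend, as were 0% of sites, and 0 of 8 and 15 of 914 had an unadjusted p under 0.05. The PABPC1 trends ran from −0.13 log2 per level (ATP5A1, SE 0.10) to −0.04 (COX4I1, SE 0.09). No gene was called for the difference between sorted and uninduced cells in either library, where 0% of sites were called. Unadjusted p under 0.05 were held by 2 of 8 genes, ATP5B and COX7C, and 34 sites with PABP1212, and by 0 genes and 1 site with PABPC1. The PABP1212 trend minus the PABPC1 trend ranged from −0.13 for USMG5 (SE 0.12, limma adjusted p = 0.996) to 0.05 for UQCRH, and no gene or site was called for this difference or for the difference in replacement (0% of sites each, with 0 genes and 2 sites at an unadjusted p under 0.05 in both). The trend differences had SEs of 0.10 to 0.13. Without the PABP1212 highest level 1 of 8 genes was called for the trend difference, where 15.2% of sites were called. It was USMG5, at −0.32 (limma adjusted p = 0.0153). For the PABP1212 difference between sorted and uninduced cells the same omission gave 2 of 8 genes, ATP5B and COX7C, both shorter in sorted cells, and 7.22% of sites.

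**Figure D2:**
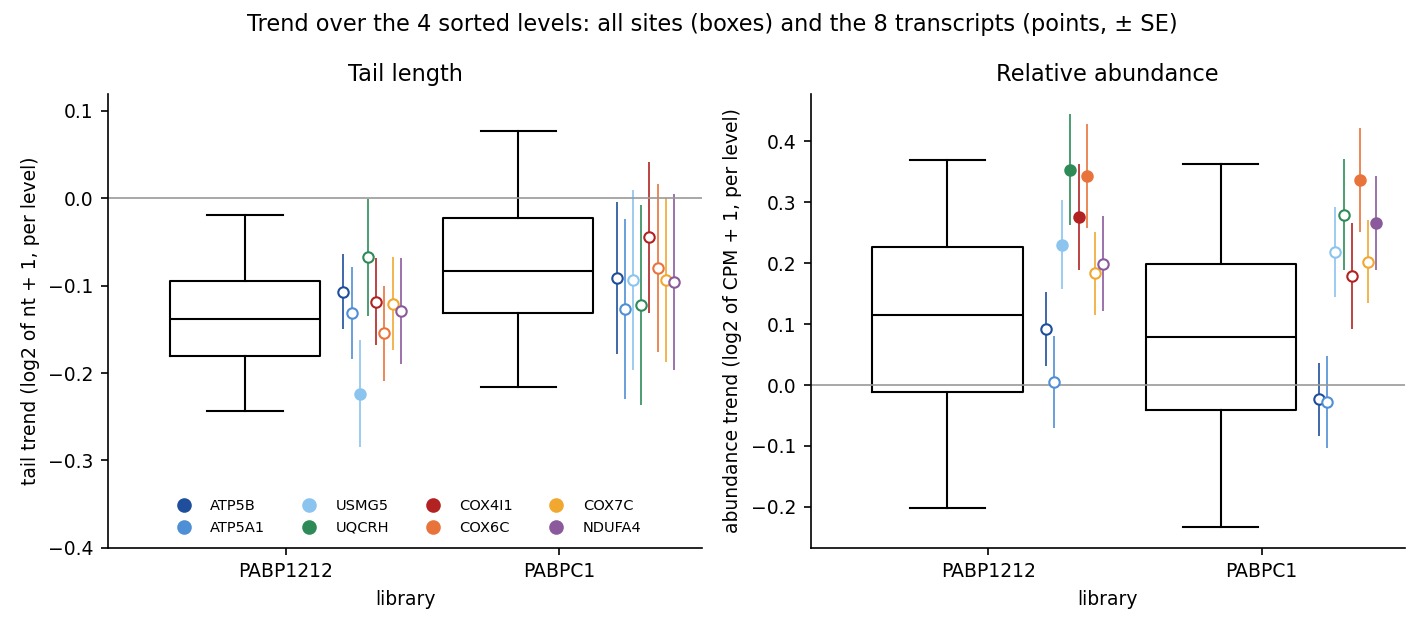
Fitted trend per level in log2 units (vertical axes) for tail length on the left and relative abundance on the right, by library. Boxes show all 914 or 801 sites, with whiskers at the 5th and 95th percentiles, points are the 8 transcripts with their SE, and filled points have a limma adjusted p under 0.05. The tail trends of the 8 transcripts lie mostly inside the boxes, and the abundance trends of ATP5B and ATP5A1 lie lowest of the 8 in both libraries.

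As a slope in nt per level, the median of the 8 gene slopes was −13.375 with PABP1212, the same as over all sites, and −7.575 with PABPC1, against −5.6 over all sites. Gene slopes ran from −22.1 (USMG5) to −9.55 nt (UQCRH) with PABP1212 and from −10.65 (USMG5) to −5.4 nt (COX7C) with PABPC1. All 8 were negative in both libraries, as were 98.6% of sites with PABP1212 and 80.1% with PABPC1. The slope of the median over the 8 genes was −14.1 nt per level with PABP1212 and −6.38 with PABPC1. Without its lowest level this slope was −8.75 nt per level with PABP1212 and −1.875 with PABPC1, and without its highest level −20.75 with PABP1212 and −11.25 with PABPC1.

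The 8 genes did not keep a fixed order of tail length. UQCRH was shortest in 7 of 10 subsamples, and the longest was NDUFA4 in 4 of them and COX6C in 3. At the PABPC1 lowest level COX6C shared this place with USMG5, both at 135 nt. In every subsample the intervals of all 7 pairs of neighbours in the order overlapped. The longest and the shortest gene overlapped as well, except in PABP1212 uninduced cells (COX7C and UQCRH) and at the PABP1212 second-highest (NDUFA4 and USMG5) and highest (NDUFA4 and UQCRH) levels. The range over genes was widest at the PABP1212 lowest level, with 40.5 nt, and was 14 to 22 nt in the other 9 subsamples.

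With PABP1212 both ends of the length distribution shifted. The shares of short and long tails over all sites were not analysed here. Pooled over the 8 genes, tails under 30 nt made up 4.68% of reads in uninduced PABP1212 cells (Clopper-Pearson 95% interval 3.73 to 5.78), and over the rising levels 9.23% (7.44 to 11.3), 10.1% (8.91 to 11.4), 14.7% (13.8 to 15.7) and 13.1% (12.2 to 14.1). With PABPC1 the shares were 4.21% (2.69 to 6.25) in uninduced cells, then 1.81% (0.785 to 3.54), 3.85% (2.65 to 5.39), 5.52% (4.47 to 6.72) and 5.66% (4.27 to 7.34). Short tails stood above uninduced cells at each PABP1212 level, with intervals apart, while the PABPC1 intervals all overlapped that of uninduced cells. Tails of 0 count as short here, and were 26 of 85 short reads at the PABP1212 lowest level and 11 of 81 in uninduced cells. Whether the intervals of that level and of uninduced cells stay apart without tails of 0 was not tested. These intervals cover counting error only, and reads of 8 genes are pooled in them.

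Tails of at least 150 nt accounted for 17.6% of reads (15.8 to 19.5) in uninduced PABP1212 cells, then 36.0% (32.9 to 39.2), 24.2% (22.5 to 26.0), 16.2% (15.3 to 17.3) and 15.1% (14.1 to 16.1) over the rising levels. With PABPC1 they made up 21.4% (18.1 to 25.1), 29.6% (25.4 to 34.1), 22.3% (19.5 to 25.2), 17.8% (16.0 to 19.7) and 19.3% (16.9 to 22.0). The lowest level stood above the other 4 subsamples in both libraries. At the PABP1212 lowest level short and long tails were both more frequent than in uninduced cells, and the interquartile range of the pooled tails was 119 nt there, against 73 nt in uninduced cells. At the PABPC1 lowest level it was 73 nt, against 80 nt in uninduced cells.

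**Figure D3:**
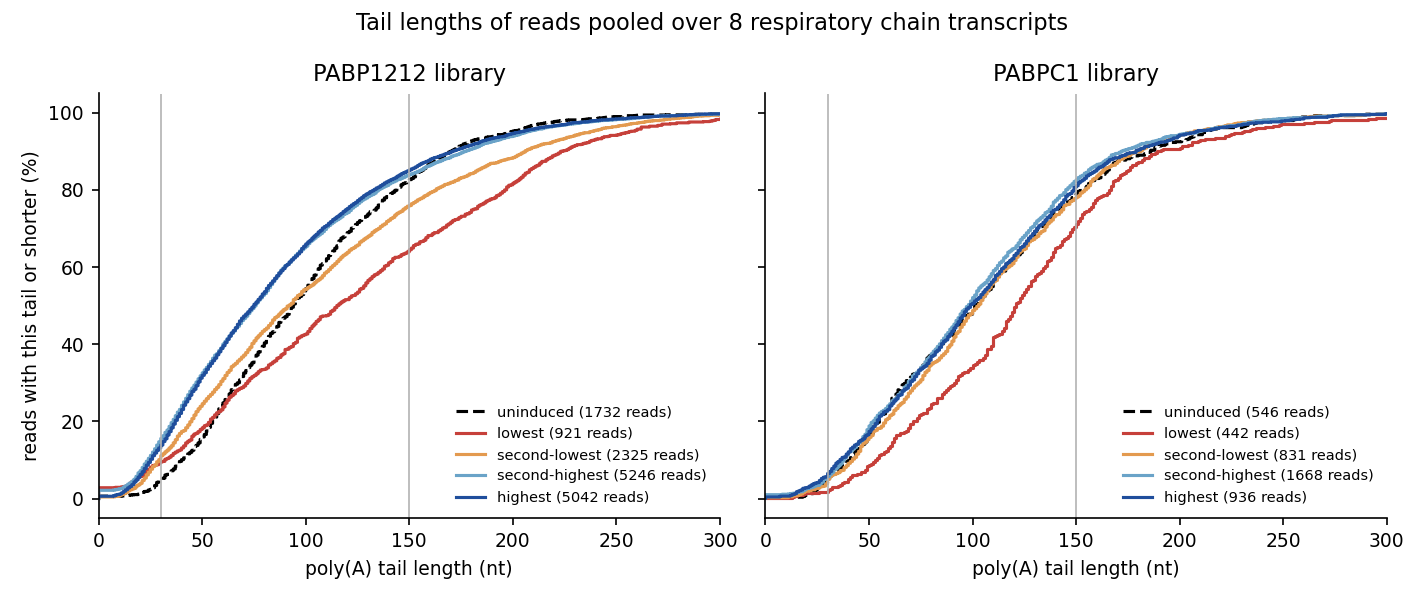
Cumulative share of reads in percent (vertical axis) by poly(A) tail length in nt (horizontal axis), for reads pooled over the 8 transcripts, with PABP1212 on the left and PABPC1 on the right. Lines are subsamples with their number of reads, and grey lines mark 30 and 150 nt. The PABP1212 lowest level crosses the uninduced line, with 9.23% of tails under 30 nt and 36.0% of 150 nt or more, whereas the PABPC1 lowest level lies below the uninduced line at both marks.

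Among the genes, UQCRH had the highest share of short tails at the PABP1212 second-highest level, with 19.6% (16.1 to 23.5) against 3.64% (1.35 to 7.75) in uninduced cells. USMG5 had 17.4% (14.3 to 20.9) there against 4.88% (2.55 to 8.37) in uninduced cells, and ATP5A1 17.3% (14.1 to 20.8) against 7.73% (4.39 to 12.4). At the highest PABP1212 level the shares were 15.1% for UQCRH, 16.1% for USMG5 and 17.7% for ATP5A1. In all 3 the intervals of the second-highest level and of uninduced cells did not overlap, nor did they in ATP5B, COX4I1, COX7C and NDUFA4. Only in COX6C did they overlap. USMG5 was the only gene with a lower share at the PABP1212 lowest level (3.13%) than in uninduced cells, with overlapping intervals. Long tails at the PABP1212 lowest level ranged from 25.9% of reads for UQCRH to 40.7% for COX6C, against 14.4% to 21.0% over the 8 genes in uninduced cells.

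**Figure D4:**
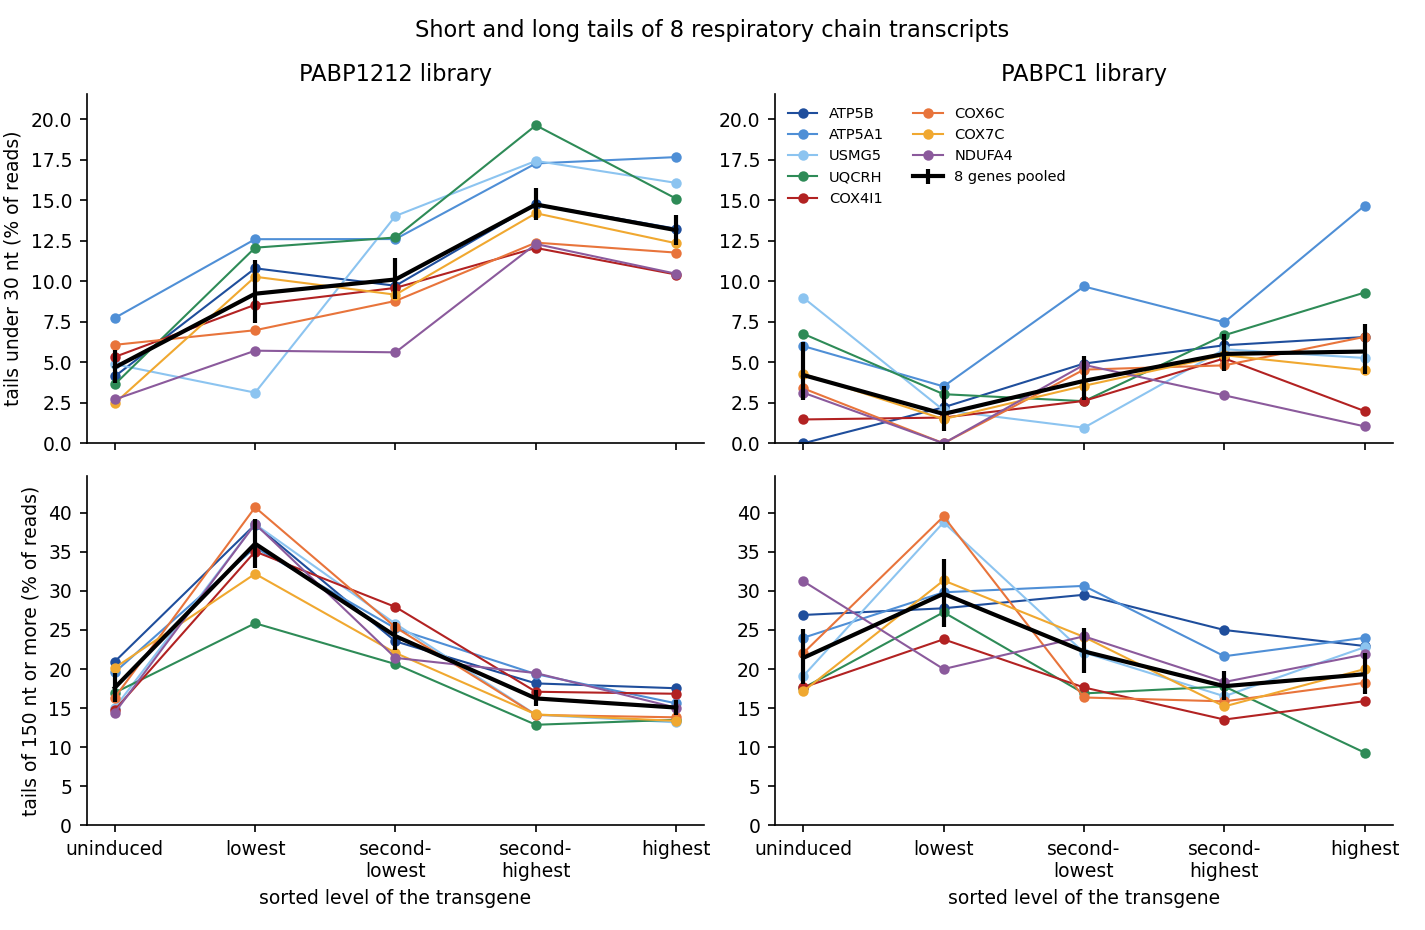
Share of reads in percent (vertical axes) by level, for tails under 30 nt in the top row and tails of 150 nt or more in the bottom row, with PABP1212 on the left and PABPC1 on the right. Thin lines are the 8 transcripts, and the black line pools them with 95% Clopper-Pearson intervals. Short tails reach 12.1% to 19.6% of reads at the PABP1212 second-highest level and 2.96% to 7.46% at the same PABPC1 level.

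Relative abundance was read from the number of reads per site. Direct RNA sequencing gives 1 read per molecule, so CPM, the reads of a site scaled to a common library total, are not divided by transcript length. In bulk subsamples, fewer cells with a transcript and less RNA per cell cannot be told apart. The 8 sites ranked 97 to 204.5 by mean reads among the 801 sites with a mean of at least 50 reads. Together they held 0.821% of reads in uninduced PABP1212 cells (0.783 to 0.861), then 0.658% (0.617 to 0.702), 0.767% (0.736 to 0.798), 0.831% (0.809 to 0.854) and 0.871% (0.847 to 0.895) over the rising levels. With PABPC1 they held 0.808% (0.742 to 0.879), 0.671% (0.610 to 0.736), 0.813% (0.759 to 0.870), 0.862% (0.822 to 0.905) and 0.893% (0.837 to 0.952). The share was smallest at the lowest level in both libraries and climbed by 0.0702 percentage points per level with PABP1212 and by 0.0716 with PABPC1. Without the lowest level the climb with PABPC1 was 0.0403.

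For the catalytic head no trend in abundance was called. ATP5B had 1493, 1523, 1527, 1623 and 1605 CPM from uninduced cells upward with PABP1212, and 1540, 1366, 1193, 1282 and 1164 with PABPC1. ATP5A1 had 919.8, 965, 811, 835 and 841 with PABP1212 and 740.2, 865, 606, 693 and 716 with PABPC1. The lowest level of ATP5A1 held the highest of these 5 values in both libraries, but with the median-ratio scaling used in the fit it had 864 CPM with PABP1212, against 1007 in uninduced cells. Scaled CPM of ATP5B with PABP1212 were 1364, 1479, 1622 and 1635 over the rising levels, against 1635 in uninduced cells, so its lowest level was then the smallest of the 5. ATP5B and ATP5A1 had limma trends of 0.09 (SE 0.06) and 0.01 (SE 0.08) log2 per level with PABP1212 and of −0.02 and −0.03 with PABPC1, and none was called. The ATP5A1 trend with PABP1212 was −0.06 when subsamples were scaled by total reads, so it has no fixed sign.

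The small membrane subunit USMG5 and the complex III subunit UQCRH had their smallest value at the lowest level. USMG5 had 1166, 686, 729, 873 and 957 CPM with PABP1212 and 1318, 744, 1017, 1158 and 1088 with PABPC1. UQCRH had 782, 415, 623, 751 and 767 with PABP1212 and 1095, 501, 753, 931 and 821 with PABPC1. In scaled log2 CPM, UQCRH at the lowest level differed from uninduced cells by −1.20 with PABP1212 and −1.31 with PABPC1, and USMG5 by −1.05 with PABP1212 and −1.0 with PABPC1. The medians over all 801 sites were −0.41 with PABP1212 and −0.31 with PABPC1. The counting intervals of the lowest level and of uninduced cells did not overlap for either gene in either library.

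In complex IV, COX6C had 1015, 615, 976, 998 and 1174 CPM with PABP1212 and 873, 653, 1076, 1075 and 1307 with PABPC1. COX4I1 had 1157, 836, 1204, 1288 and 1344 with PABP1212 and 1007, 957, 1496, 1184 and 1441 with PABPC1. In both genes the lowest level was the smallest of the 5 in both libraries. COX7C had 1152, 1044, 1151, 1262 and 1344 with PABP1212 and 1036, 1017, 1379, 1427 and 1479 with PABPC1. NDUFA4 had 526, 500.5, 646, 683 and 677 with PABP1212 and 474, 607, 606, 874 and 916 with PABPC1. NDUFA4 was the only complex IV gene whose lowest PABPC1 level exceeded uninduced cells, with overlapping intervals.

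**Figure D5:**
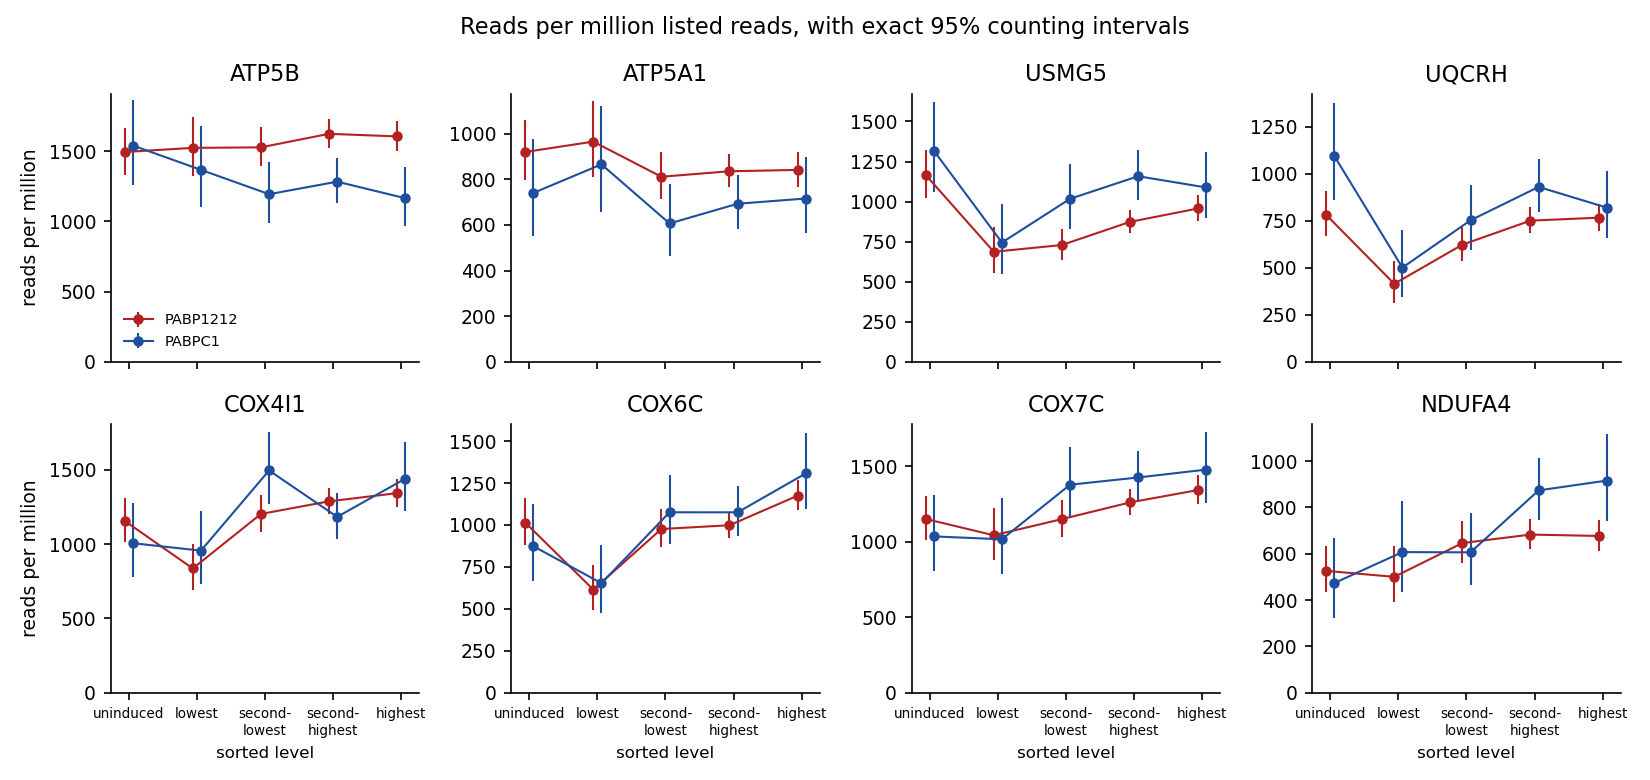
CPM over listed reads (vertical axes, from 0) by level for each of the 8 transcripts, with PABP1212 in red and PABPC1 in blue and exact 95% counting intervals. USMG5, UQCRH and COX6C dip at the lowest level in both libraries, to 415 to 686 CPM with PABP1212 and 501 to 744 with PABPC1. ATP5B with PABP1212 dips there only after median-ratio scaling, which is not plotted. After that scaling ATP5A1 with PABP1212 has 864 CPM there, below uninduced cells but above the other 3 levels.

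The abundance fit, limma on log2(CPM + 1) over 801 sites, called 4 of 8 genes for a PABP1212 trend, all rising with the level, where 22.2% of sites were called. They were UQCRH (0.35 log2 per level, SE 0.09, limma adjusted p = 0.0175), COX6C (0.34, SE 0.09, 0.0151), COX4I1 (0.28, SE 0.09, 0.0361) and USMG5 (0.23, SE 0.07, 0.0365). COX7C and NDUFA4 had trends of 0.18 and 0.20 with limma adjusted p of 0.0691 and 0.0802. Over the 8 genes the median was 0.21 log2 per level, against 0.12 over all sites. With a mean of at least 100 reads as the minimum, which all 8 genes meet, 5 of 8 genes and 40.7% of 356 sites were called. The median over these sites was 0.15 log2 per level. None of the 4 calls held without the PABP1212 lowest level (limma adjusted p from 0.853 to 0.951) or with sites of a mean of at least 10 reads in the fit (0.109 to 0.182). With the second-highest level left out, 2 of 8 genes were called, UQCRH and COX6C, and 13.1% of sites for the PABP1212 one or 14.1% for the PABPC1 one. With the PABPC1 lowest or second-lowest level left out 6 of 8 genes were called, as were 33.5% or 28.8% of sites.

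With PABPC1 2 of 8 genes were called for an abundance trend, both rising, where 13.0% of sites were called. They were COX6C (0.34 log2 per level, SE 0.09, limma adjusted p = 0.0272) and NDUFA4 (0.27, SE 0.08, 0.0388). UQCRH, USMG5, COX7C and COX4I1 had trends of 0.28, 0.22, 0.20 and 0.18 with limma adjusted p from 0.0560 to 0.167. The median was 0.21 over the 8 genes, against 0.08 over all sites. With a mean of at least 100 reads as the minimum, 3 of 8 genes and 15.4% of 356 sites were called, with a median of 0.09 over these sites. Neither call held without the PABPC1 lowest level (limma adjusted p = 0.520 for COX6C and 0.178 for NDUFA4), without its highest or second-highest level, or with voom weights, each of which left 0 genes and 0.749% to 3.25% of sites. The count was 6 of 8 genes and 28.1% of sites with the PABPC1 second-lowest level left out, 4 of 8 and 16.7% with the PABP1212 lowest left out, 3 of 8 and 14.2% with the PABP1212 highest left out, and 1 of 8 and 8.36% with the PABP1212 second-highest left out.

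Between sorted and uninduced cells, 1 of 8 genes was called for abundance with PABP1212, where 12.5% of sites were called, and 1 of 8 with PABPC1, where 25.1% of sites were called. With PABP1212 USMG5 was lower in sorted cells (−0.71 log2, SE 0.18, limma adjusted p = 0.0268), and with PABPC1 UQCRH was (−0.68, SE 0.23, 0.0412). All sites had medians of −0.21 and −0.15 for these differences. Scaling by total reads moved the PABP1212 median to −0.04 and ended both calls, with USMG5 at −0.54 (limma adjusted p = 0.0733) and UQCRH at −0.58 (0.0584). Under that scaling NDUFA4 was called with PABPC1, higher in sorted cells (0.64, limma adjusted p = 0.0233), against 0.54 (0.0550) with median ratios. Leaving out the PABPC1 second-highest level set the PABP1212 count to 0, with 4.49% of sites called, and leaving out the PABPC1 lowest set it to 2, with 26.3%. The PABPC1 count became 0 with its highest or second-highest level left out (17.1% and 18.1% of sites) and 2 with the PABP1212 highest left out (26.2%). It became 3 with the PABPC1 lowest or second-lowest left out (32.0% and 34.5%) and 4 with the PABP1212 lowest left out (28.96%).

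No gene was called for a difference between the libraries in either abundance term, where 0.624% of sites were called for the replacement difference and 0% for the trend difference. At an unadjusted p under 0.05 these held 0 of the 8 genes, and 91 and 53 sites. The trend differences of the 8 genes ran from −0.07 (NDUFA4, SE 0.11) to 0.12 log2 per level (ATP5B, SE 0.09).

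The genes other than ATP5B and ATP5A1 made up a smaller share of the group's reads at the lowest level, a split chosen after the values were seen and given with no test. The 6 genes held 70.6% of the group's reads (68.4 to 72.7) in uninduced PABP1212 cells, then 62.2% (59.0 to 65.4), 69.5% (67.6 to 71.4), 70.4% (69.2 to 71.7) and 71.9% (70.7 to 73.2) over the rising levels. With PABPC1 they held 71.8% (67.8 to 75.5) in uninduced cells, then 66.7% (62.1 to 71.1), 77.9% (74.9 to 80.6), 77.1% (75.0 to 79.1) and 79.0% (76.2 to 81.5). The intervals of the lowest level and of uninduced cells were apart with PABP1212 and overlapped with PABPC1. The share of the 6 genes within a subsample does not depend on how subsamples are scaled. The 6 genes did not move alike. From uninduced PABPC1 cells to the lowest level, reads went from 89 to 49 for USMG5 and from 74 to 33 for UQCRH. They went from 59 to 43 for COX6C, 68 to 63 for COX4I1, 70 to 67 for COX7C and 32 to 40 for NDUFA4. ATP5B and ATP5A1 have longer annotated transcripts than USMG5, UQCRH, COX4I1, COX6C and COX7C. That of NDUFA4 has 2130 nt to its annotated end, but its deposited site lay 1588 nt inside the downstream edge of its window. A part of transcript length in the split was not tested.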

How the data were processed

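Per the file headers, the deposited tables hold 1 row per nanopore read, with its sample name, poly(A) site and tail length in nt, the unit of the authors' values used here. Libraries were made from 1 μg of total RNA with kit SQK-RNA004 and custom barcoded adapters, per the labels' protocols. The tools minimap2 and Bowtie2 and the build hg38 appear in the submitters' processing notes, which state neither versions nor roles. Which basecaller and tail length caller were used is not given in the sources used here. The authors merged 3 barcodes for each sorted level, and the uninduced subsample has 1, per the deposited barcode table.

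The genes and lists were chosen with earlier results of these data known, and so was the minimum of 50 reads for abundance. All 9 genes of the rule were to be named, each by its site inside a window on hg19. No annotation of that build was used, so other genes of the pathway were not analysed here. Reads whose sample name is missing from the barcode table, 5.63% of the PABP1212 library and 2.86% of the PABPC1 library, entered no comparison.

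Fits (limma 3.58.1, R 4.3.3) had terms for the library and, inside each library, for replacement and for the centred rank of the level. They keep 4 residual degrees of freedom. Error is the scatter around a straight line over levels and may be technical. Each uninduced subsample, which stands alone, is taken to scatter as much. For tails the response was the mean of log2(nt + 1) over the reads of a site, with read numbers as weights in the fit. Sites had 10 or more reads in each of the 10 subsamples. Abundance was computed here from the reads as log2(CPM + 1), scaled by the median ratio over 5662 sites. The fits were tested on simulated data. Order-statistic and Clopper-Pearson intervals are at 95% and cover counting error only. Python 3.11.15 served for the rest, with pandas 2.3.3, NumPy 2.4.6, Matplotlib 3.10.9 and SciPy 1.17.1. Alternatives concerned tails of 0 or under 10 nt, the log scale, weights, minimum reads, scaling, the pseudocount, separate libraries and each subsample left out.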

Additional observations from a re-analysis of the deposited data

Results flagged for a closer look

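Reads of a sample name that the deposited barcode table does not list also fell on the 8 sites, and many of them had a tail length of 0. In the PABP1212 library 23.7308% of 847 such reads had a tail of 0 (201 reads, Clopper-Pearson 95% interval 20.9 to 26.7), above the 0.635% of the uninduced subsample (0.317 to 1.13). In the PABPC1 library the share was 11.3208% of 106 reads (12 reads, 5.99 to 18.9), above the 0.183% of the uninduced subsample (0.00464 to 1.02). Their median tails were 73 nt with PABP1212 and 96.5 nt with PABPC1. Over all sites, tails of 0 made up 23.6% of 111259 unlisted reads with PABP1212 and 9.69% of 15723 with PABPC1. The shares at the 8 sites were thus close to those of all unlisted reads. These reads entered no comparison.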

How the results depend on the processing

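Counts of the 8 genes called for the PABP1212 tail trend (1) were 0 with libraries fitted apart, 7 on a scale in nt without log, 0 with subsample medians subtracted, and 8 with tails of 0 or tails under 10 nt left out. With sites of a mean of at least 10 reads, all 4 counts of abundance calls above 0 became 0. Scaling by total reads gave 0 for the PABP1212 replacement, 2 for the PABP1212 trend and 1 for the PABPC1 trend. A mean of at least 100 reads gave 3 for the PABPC1 replacement, voom weights gave 0 for both PABPC1 terms, and libraries fitted apart gave 1 for the PABPC1 trend. Means of reads in place of medians gave a tail change of 24.0 nt at the lowest and −12.8 nt at the highest PABP1212 level. With reads of sites of a mean of at least 50 as denominator, the share of reads climbed by 0.0587 percentage points per level with PABP1212 and 0.0876 with PABPC1. With a subsample left out in turn, counts ranged from 0 to 2 and 0 to 6 for the PABP1212 abundance replacement and trend, 0 to 4 and 0 to 6 for the PABPC1 ones, 0 to 2 and 0 to 8 for the PABP1212 tail replacement and trend, and 0 to 1 for the tail trend difference. Slopes ranged from −20.75 to −8.75 nt (PABP1212) and −11.25 to −1.875 nt (PABPC1), and share slopes from 0.0521 to 0.0865 (PABP1212) and 0.0403 to 0.0956 (PABPC1). With subsample medians subtracted, PABP1212 tail trends turned positive for ATP5A1 (0.0099), ATP5B (0.029), COX4I1 (0.0061), COX7C (0.0094), NDUFA4 (0.0012) and UQCRH (0.052), and the PABPC1 one for COX4I1 (0.025). Tail trends also turned for UQCRH without the PABP1212 second-lowest level (0.014, range −0.22 to 0.014 over subsamples left out), and without the PABPC1 lowest for COX4I1 (0.016, range −0.16 to 0.016) and COX6C (0.0018, range −0.20 to 0.0018). The PABP1212 abundance trend of ATP5A1 turned with total reads (−0.055) and without the PABP1212 highest (−0.025) or second-lowest level (−0.0070, range −0.025 to 0.063). Without the PABPC1 lowest level the PABPC1 abundance trend was 0.13 for ATP5A1 (range −0.11 to 0.13) and −0.017 for COX4I1 (range −0.017 to 0.23). The cause was not tested. Each gene had 1 site, so main sites alone gave nothing else. No paired analysis was possible because each transgene has 1 library and the labels give no replicate numbers. Depth was least for NDUFA4 in uninduced PABPC1 cells, where 32 reads gave a median interval of 76 to 151 nt.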
